A study of Mus musculus with 17 samples.

Results

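The genes described here encode 6 secreted regulators of the cell surface and matrix. They are the CCN genes Ccn1, Ccn2, Ccn4 and Ccn5 and the thrombospondin genes Thbs1 and Thbs2. They were measured in NIH 3T3 mouse fibroblasts given PDGF and kinase inhibitors, with quiescence stated in the labels for most arrays. A probe set, the group of short probes that reports on a transcript, was included when the platform annotation paired it with exactly 1 of these genes, under the present symbol or the older ones (Cyr61, Ctgf, Wisp1, Wisp2). The series names 12636 genes. In a table of 8 arrays 10 of 22690 probe sets belonged to the 6 genes. In a table of 9 arrays, of another array design, 5 of 12488 probe sets belonged to 5 of them, and Thbs1 had no probe set of its own there. All 15 probe sets passed the filter on dim signals.

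Matricellular proteins are secreted into the matrix but act mainly as signals, by binding integrins, proteoglycans and growth factors. CCN1 and CCN2 are classic immediate early products of growth factors and serum in fibroblasts, and their genes are also well known targets of the YAP and TEAD and of the SRF transcription factors. Thrombospondin 1 activates latent TGF-beta and inhibits angiogenesis, and thrombospondin 2 is a related inhibitor of angiogenesis without that activating sequence. CCN5 lacks the C-terminal cystine knot domain of the other CCN proteins and is known as a growth inhibitor in smooth muscle cells.

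NIH 3T3 is an immortal mouse embryonic fibroblast line, and every array comes from quiescent cells of this line or, for the treated arrays of the MEK experiment, from cells whose quiescence the labels state only for the untreated array. The Src experiment comprised PDGF for 1 h at 25 ng/ml in combination with SU6656 (2 µM, an inhibitor of Src family kinases), UO126 (10 µM, an inhibitor of MEK) or LY294002 (7.5 µM, an inhibitor of PI3K), PDGF alone, the 3 inhibitors alone, and vehicle. The MEK experiment comprised PDGF at 25 ng/ml with UO126 (10 µM) or PD98059 (7.5 µM, another MEK inhibitor), PDGF alone, each inhibitor alone, and untreated cells, with no PDGF time in the labels. A repeat of the Src experiment comprised PDGF with SU6656, PDGF alone and vehicle, at the doses and the time of the first. Its 3 arrays and the 6 of the MEK experiment make up the 9-array table, and the 8 arrays of the Src experiment the other.

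No condition has more than 1 array within an experiment, and the labels do not say that arrays came from separate cultures. The p-values thus measure only how these arrays spread, and that spread may be technical. Array medians were 133.7 to 198.4 signal units, and the number of arrays limits the precision. Markers of fibroblasts (Col1a1, Col1a2 and Pdgfrb among them) lay above the dim filter in both tables, 9 of 9. The filter alone does not identify the cells, since 3 of 4 macrophage markers also passed it in both tables. So did 3 of 4 platelet markers in the 8-array table. In that table the lowest fibroblast marker lay at signal percentile 82.2, and the highest marker of the other cell types at 70. In the 9-array table the lowest fibroblast marker lay at 33 and the highest macrophage marker at 85.4. In the 8-array table the summed fibroblast signal was 186218 to 211785 with PDGF and 189692 to 225254 without. The summed signal of 4 markers of platelets, which are rich in thrombospondin 1, was 689.4 to 923.4 with PDGF and 731.5 to 931.6 without. No list of endothelial, platelet, macrophage or epithelial markers had a member past the threshold for PDGF in limma in either table. The ratio of the 3′ to the 5′ Gapdh control probe sets was 1.13 on the untreated array of the MEK experiment and 0.739 to 0.907 on the other 16 arrays.

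The RefSeq promoter table of build GRCm38.p6 held 2 of the 6 genes, Ccn1 and Thbs2, which are also the genes with the largest and the smallest tested PDGF effects below. Both windows run from 250 bases before to 50 bases after the annotated start, on the minus strand, Ccn1 at chr3:145649936-145650235 and Thbs2 at chr17:14694213-14694512. Capitals mark the matches to 5 motifs searched on both strands by their letters, and to the CArG box of SRF, which is given by name alone.

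Ccn1: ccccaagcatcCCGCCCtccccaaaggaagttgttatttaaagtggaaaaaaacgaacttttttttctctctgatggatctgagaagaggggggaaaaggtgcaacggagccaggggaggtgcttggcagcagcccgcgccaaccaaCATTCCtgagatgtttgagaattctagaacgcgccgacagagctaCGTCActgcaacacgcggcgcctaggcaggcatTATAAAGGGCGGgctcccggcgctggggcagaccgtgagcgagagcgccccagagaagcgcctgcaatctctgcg

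Thbs2: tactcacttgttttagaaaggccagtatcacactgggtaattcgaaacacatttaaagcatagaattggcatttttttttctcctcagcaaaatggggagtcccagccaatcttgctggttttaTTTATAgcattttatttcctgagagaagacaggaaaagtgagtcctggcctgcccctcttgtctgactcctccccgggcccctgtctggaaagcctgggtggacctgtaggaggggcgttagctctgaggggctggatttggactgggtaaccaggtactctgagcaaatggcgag

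The Ccn1 window held the TEAD element CATTCC at −103 from the start, the TGACG core of a cyclic AMP response element on the reverse strand at −58, a TATAAA box at −25 directly followed by the SP1 box GGGCGG at −19, and another SP1 box on the reverse strand at −239. The Thbs2 window held only TATAAA, on the reverse strand at −126. Neither window contained a CArG box or the AP-1 site TGACTCA. Among 32851 promoter windows of this length, CATTCC occurred in 14.7%, TGACG in 20.8%, TATAAA in 13.6%, GGGCGG in 35.7%, TGACTCA in 5.2% and the CArG box in 1.63%. These letters describe the windows, and no binding was measured.

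The first question was which of the genes PDGF changed. Ccn1, Ccn2, Thbs1 and Ccn4 rose and Ccn5 fell in the Src experiment. Ccn1 and Ccn2 rose in the 9-array table, where the Ccn4, Ccn5 and Thbs2 effects did not pass the test. Of 10 member probe sets, 7 rose in the 8-array table, where 2.51% of all probe sets tested did, and 1 fell, where 0.808% did. Of 5 in the 9-array table, 2 rose, against 1.46% of all, and 0 fell, against 0.265% of all, in limma's test with Benjamini-Hochberg adjustment. At an unadjusted p under 0.05, in both directions together, there were 9 of 10 in the 8-array table, against 16.3% of all, and 4 of 5 in the 9-array table, against 13.3% of all. Effects are differences in log2(quantile-normalised signal + a pseudocount), fitted over 4 pairs of arrays that share an experiment and an inhibitor, with a threshold of 0.05 on the adjusted p. The pseudocount makes the folds of dim probe sets smaller than the signal ratios. With arrays scaled to a common median in place of quantiles, 579 probe sets of the 8-array table rose and 65 fell, against 397 and 128 here. In RNA from whole cultures, fewer cells that make a transcript and less RNA per cell cannot be told apart.

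**Figure D1:**
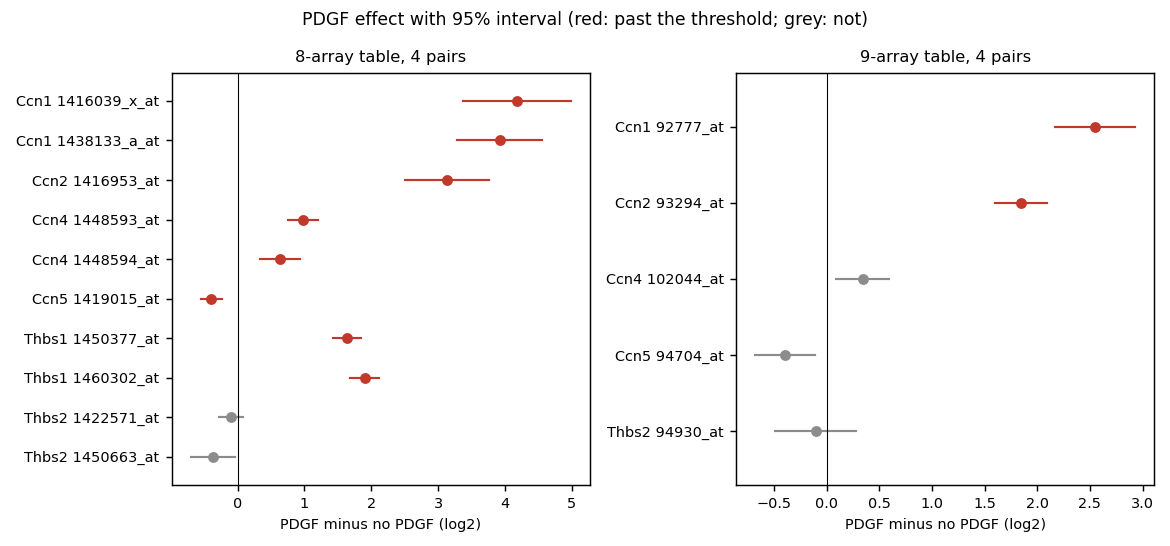
PDGF effect on each member probe set, as log2 PDGF minus no PDGF with its 95% interval from limma (left, 8-array table; right, 9-array table; 4 pairs each; the x axes differ). Red points passed the threshold: Ccn1 stands highest at 4.18 and 2.55, Ccn5 passed on the negative side in the 8-array table, and the 3 Thbs2 probe sets are grey.

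Ccn1 (CYR61), an integrin ligand that promotes adhesion and migration, had the largest response of the 6 genes. Its brighter probe set, 1416039_x_at, whose suffix marks a set with probes shared with other transcripts, read 6996.3 with PDGF and SU6656, 7492.4 with PDGF and UO126, 7926.8 with PDGF and LY294002, and 6655.8 with PDGF alone. The partners without PDGF read 146.4 with SU6656, 215.5 with UO126, 1368.9 with LY294002 and 393.2 with vehicle. The groups did not overlap, and the 4 PDGF arrays lay within 1.19-fold of each other, whereas the 4 arrays without PDGF spanned 9.35-fold. The PDGF effect was 4.18 (log2, SE 0.36, limma adjusted p = 1.55e-04). Pair by pair the response was 40.2-fold in the presence of SU6656, 29.7-fold with UO126, 5.63-fold with LY294002 and 15.9-fold with vehicle. The highest of these folds depend on the pseudocount: with it at the 50th percentile the log2 response was 4.46 in place of 5.33 with SU6656 and 4.22 in place of 4.89 with UO126. The other Ccn1 probe set, 1438133_a_at, gave 3.92 (SE 0.284, adjusted p = 5.38e-05), with 2016.5 to 3053.6 in PDGF arrays and 56.6 to 465.2 without.

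The rise of Ccn1 also passed in the 9-array table. In the MEK experiment 92777_at read 461.6 with PDGF plus UO126, 509.9 with PDGF plus PD98059 and 352.7 with PDGF, against 79.2 with UO126, 47.2 with PD98059 and 51.8 in untreated cells. In the repeat it read 752.0 with PDGF and SU6656 and 813.4 with PDGF, against 119.8 with vehicle. Every PDGF array was above every array without PDGF in that table, and the effect was 2.55 (SE 0.172, adjusted p = 1.50e-05). The signals without PDGF in the MEK experiment were near the filter's mean of 44.7 signal units. With the pseudocount at the 50th percentile the effect was 1.61 and still passed, and the response over untreated cells in the MEK experiment was 1.33 in place of 2.36. Over vehicle or untreated cells alone, the log2 response of Ccn1 averaged 3.00 ± 0.87 over the 3 experiments (SD, n = 3). It was 3.99 in the Src experiment, 2.36 in the MEK experiment and 2.65 in the repeat. The SD of such means, here and below, also holds the difference between the 2 array designs and their pseudocounts.

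Ccn2 (CTGF), a driver of fibroblast matrix production, ordered the 4 arrays without PDGF in the same way as Ccn1. Probe set 1416953_at read 4160.4 with PDGF and SU6656, 6152.9 with PDGF and UO126, 8226.1 with PDGF and LY294002 and 4875.5 with PDGF. It read 204.3 with SU6656, 456.9 with UO126, 2033.2 with LY294002 and 675.5 with vehicle. The lowest array with PDGF was above the highest without, and the LY294002 arrays were the highest of both groups. The arrays with PDGF spanned 1.98-fold, the widest PDGF span of the 10 member probe sets in the table, and those without spanned 9.95-fold. The effect was 3.13 (SE 0.281, adjusted p = 2.13e-04), made up of responses of 17.9-fold with SU6656, 12.4-fold with UO126, 3.89-fold with LY294002 and 6.86-fold with vehicle. With the pseudocount at the 50th percentile the log2 response with SU6656 was 3.49 in place of 4.16.

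The Ccn2 effect in the 9-array table was 1.84 (SE 0.112, adjusted p = 7.20e-06). Probe set 93294_at read 4143.9 with PDGF plus UO126, 2929.2 with PDGF plus PD98059 and 2288.2 with PDGF in the MEK experiment. Its partners without PDGF read 1041.5, 887.1 and 490.6 with UO126, with PD98059 and in untreated cells. In the repeat it read 5521.3 with PDGF and SU6656 and 5415.9 with PDGF, against 1717.5 with vehicle. The groups were apart within each experiment. The response over vehicle or untreated cells averaged 2.19 ± 0.57 (log2, SD, n = 3 experiments).

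**Figure D2:**
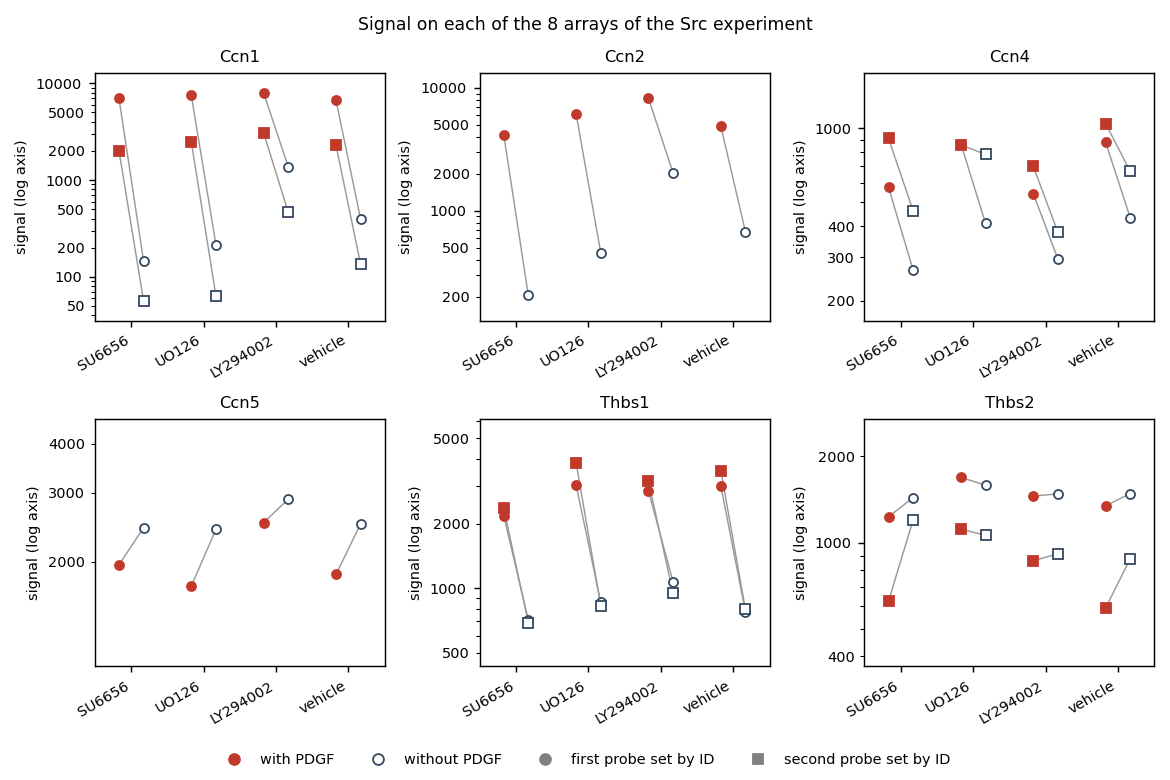
Deposited signal (log axis, signal units) of each member probe set on the 8 arrays of the Src experiment, by inhibitor, with PDGF in red to the left and without PDGF open to the right of each line that joins a pair; squares are the second probe set of a gene by its ID. The red points span 1.19-fold for the brighter Ccn1 set and 1.98-fold for Ccn2, and the open points 9.35-fold and 9.95-fold; Ccn5 lines slope the other way.

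Thbs1, the TGF-beta activating thrombospondin, was measured only in the Src experiment. Probe set 1460302_at read 2355.6 with PDGF and SU6656, 3840.4 with PDGF and UO126, 3154.1 with PDGF and LY294002 and 3535.0 with PDGF. Without PDGF it read 691.0 with SU6656, 829.6 with UO126, 945.5 with LY294002 and 795.3 with vehicle. The groups spanned 1.63-fold with PDGF and 1.37-fold without, and did not overlap. The effect was 1.90 (SE 0.0938, adjusted p = 6.27e-06), and 1.63 (SE 0.0932, adjusted p = 1.33e-05) for 1450377_at, which read 2179.0 to 3026.0 with PDGF and 707.9 to 1071.1 without. The array with PDGF and SU6656 was the lowest of the PDGF arrays on both probe sets.

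Ccn4 (WISP1), a target of WNT1 signalling in mouse mammary cells, changed less. Probe set 1448593_at read 575.9 with PDGF and SU6656, 864.4 with PDGF and UO126, 543.0 with PDGF and LY294002 and 877.3 with PDGF. The partners read 265.5 with SU6656, 411.6 with UO126, 295.0 with LY294002 and 433.2 with vehicle. The groups did not overlap, and each PDGF array was 1.76-fold to 2.11-fold above its partner. The effect was 0.98 (SE 0.102, adjusted p = 5.54e-04).

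On the other Ccn4 probe set, 1448594_at, PDGF arrays read 700.8 to 1044.7 and arrays without PDGF 378.2 to 783.2, so the groups overlapped. With UO126 it read 856.4 in the presence of PDGF and 783.2 without, a response of 1.08-fold. With the pair as a block, leaving out either array of a pair removes that pair from the PDGF effect. The fits without each array of a pair are thus not separate checks. The effect was 0.63 (SE 0.135, adjusted p = 0.0359) and kept the call only without the UO126 array (0.81) or the PDGF and UO126 array (0.80). It lost the call without the vehicle array (0.63, adjusted p = 0.137), the PDGF array (0.63), the SU6656 array (0.54), the PDGF and SU6656 array (0.53), the LY294002 array (0.56) or the PDGF and LY294002 array (0.56). The 9-array set, 102044_at, read 1146.7 to 1352.8 with PDGF and 856.4 to 1079.8 without in the MEK experiment, and in the repeat 1041.2 with PDGF and SU6656 and 1237.5 with PDGF, against 950.5 with vehicle. All 4 pairs were higher with PDGF, by 0.10 to 0.51 on the log2 scale, but the effect of 0.34 (SE 0.114, adjusted p = 0.232) did not pass.

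Ccn5 (WISP2), the member known as a growth inhibitor, was lower with PDGF in 4 of 4 pairs of each table. In the Src experiment 1419015_at read 1964.1 with PDGF and SU6656, 1733.2 with PDGF and UO126, 2518.1 with PDGF and LY294002 and 1857.1 with PDGF. Without PDGF it read 2441.9 with SU6656, 2418.8 with UO126, 2887.5 with LY294002 and 2498.8 with vehicle. The array with PDGF and LY294002 overlapped the group without PDGF, and the others with PDGF lay below it. The effect was −0.39 (SE 0.0715, adjusted p = 0.0164). As for Ccn4, leaving out either array of a pair removed that pair from the effect. The call was kept only without the LY294002 array (−0.44) or the PDGF and LY294002 array (−0.45). It was lost without the vehicle array (−0.37, adjusted p = 0.106), the PDGF array (−0.37), the SU6656 array (−0.41), the PDGF and SU6656 array (−0.41), the UO126 array (−0.35) or the PDGF and UO126 array (−0.35). It was also lost with arrays scaled to a common median (−0.24).

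The effect on Ccn5 did not pass in the 9-array table (−0.40, SE 0.127, adjusted p = 0.216). There 94704_at read 564.9 with PDGF plus UO126, 543.0 with PDGF plus PD98059 and 436.2 with PDGF, against 637.2 with UO126, 712.7 with PD98059 and 549.1 in untreated cells. In the repeat it read 1110.6 with PDGF and SU6656 and 1190.9 with PDGF, against 1991.0 with vehicle. Its response over vehicle or untreated cells averaged −0.50 ± 0.19 (log2, SD, n = 3 experiments).

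Thbs2, the anti-angiogenic relative of Thbs1, did not pass for PDGF on any probe set. The effects were −0.10 (95% interval −0.28 to 0.07, adjusted p = 0.575) for 1422571_at, −0.37 (−0.70 to −0.04, adjusted p = 0.257) for 1450663_at and −0.11 (−0.49 to 0.28, adjusted p = 0.851) for 94930_at. Scaled to a common median, 1422571_at turned to 0.03. Over vehicle or untreated cells alone Thbs2 was lower with PDGF in all 3 experiments (−0.34 ± 0.16, log2, SD, n = 3). That mean takes the brighter set of the Src experiment (−0.16), where 1450663_at gave −0.53. With UO126 present the pairs were nearly level, at 0.05, 0.04 and 0.04 on the 3 probe sets (0.27 and 0.25 on the first and the second with arrays scaled to a common median). The LY294002 pairs were nearly level too, at −0.04 on 1422571_at and −0.06 on 1450663_at. The SU6656 pairs were at −0.25 and −0.92 in the same order. With PD98059 the PDGF array was higher, 363.8 against 276.1. Whether the pairs differed was tested for the MEK experiment alone, as the interaction given with the MEK results, and was not tested in the Src experiment.

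**Figure D3:**
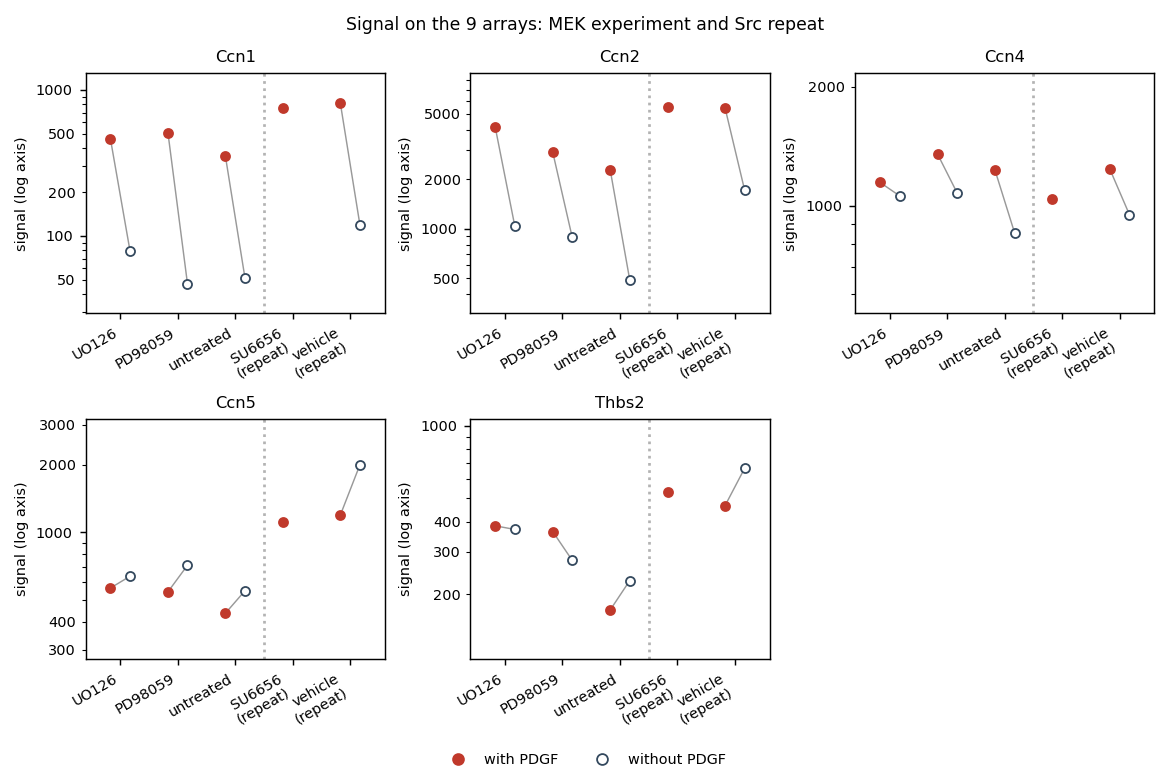
Deposited signal (log axis, signal units) of the 5 members of the 9-array table, with PDGF in red to the left and without PDGF open to the right of each pair; the dotted line divides the MEK experiment from the Src repeat, which has no array with SU6656 alone. Ccn1 and Ccn2 are higher with PDGF in every pair, and Thbs2 is at its lowest, 171.9, with PDGF alone in the MEK experiment.

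The next question was what the inhibitors did in cells not given PDGF, and Ccn1 and Ccn2 differed most between them. In the Src experiment LY294002 without PDGF gave 3.37-fold and 2.95-fold the vehicle level of Ccn1 on its probe sets and 3.00-fold that of Ccn2. SU6656 without PDGF gave levels 2.39-fold and 1.87-fold lower for Ccn1 and 3.03-fold lower for Ccn2. Some of these folds depend on the pseudocount. With it at the 50th percentile the log2 difference with SU6656 was −0.40 in place of −0.90 for Ccn1 at 1438133_a_at. For Ccn2 it was −1.155 in place of −1.60, and for 1438133_a_at with LY294002 1.02 in place of 1.56. Each ratio is 1 array against 1 array and has no test. Only 0.133% of probe sets in the table were as high with LY294002 as the brighter Ccn1 set, and only 0.36% as low with SU6656 as Ccn2. Thbs1, Ccn5 and the brighter Thbs2 set moved by at most 1.36-fold with these inhibitors, in either direction, and the other Thbs2 set was 1.38-fold higher with SU6656, at 1200.5 against 878.1 with vehicle. Ccn4 was lower than vehicle with SU6656, by 1.56-fold and 1.41-fold on its probe sets, and with LY294002, by 1.40-fold and 1.70-fold.

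UO126 without PDGF gave opposite readings in the 2 experiments that used it. Ccn1 was 1.72-fold and 1.84-fold lower and Ccn2 1.44-fold lower than vehicle in the Src experiment, but Ccn1 was 1.38-fold and Ccn2 2.02-fold higher than untreated cells in the MEK experiment. With the pseudocount at the 50th percentile the log2 difference of Ccn1 at 1438133_a_at was −0.40 in place of −0.88. That of Ccn1 in the MEK experiment was 0.19 in place of 0.47. PD98059, given in the MEK experiment alone, left Ccn1 at 0.966-fold and Ccn2 at 1.70-fold. The untreated array of that experiment is the one with the high Gapdh 3′ to 5′ ratio of 1.13, and its part in these ratios was not tested.

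With PDGF present the inhibitors separated Ccn1 less. Over PDGF alone the brighter Ccn1 set was 1.06-fold with SU6656, 1.09-fold with UO126 and 1.19-fold with LY294002 in the Src experiment. The other set was 0.877-fold with SU6656, 1.08-fold with UO126 and 1.33-fold with LY294002, so the sets differed in direction for SU6656. In the MEK experiment Ccn1 was 1.31-fold with UO126 and 1.41-fold with PD98059, and in the repeat 0.896-fold with SU6656. Ccn2 was 1.70-fold with LY294002, 1.26-fold with UO126 and 0.861-fold with SU6656 in the Src experiment, and 1.74-fold with UO126 and 1.25-fold with PD98059 in the MEK experiment. Thbs1 was 1.39-fold and 1.49-fold lower with SU6656 than with PDGF alone, and within 1.11-fold of it with the other inhibitors. Ccn4 was lower with SU6656 in the Src experiment (1.48-fold and 1.15-fold) and in the repeat (1.22-fold), and lower with LY294002 (1.59-fold and 1.47-fold).

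**Figure D4:**
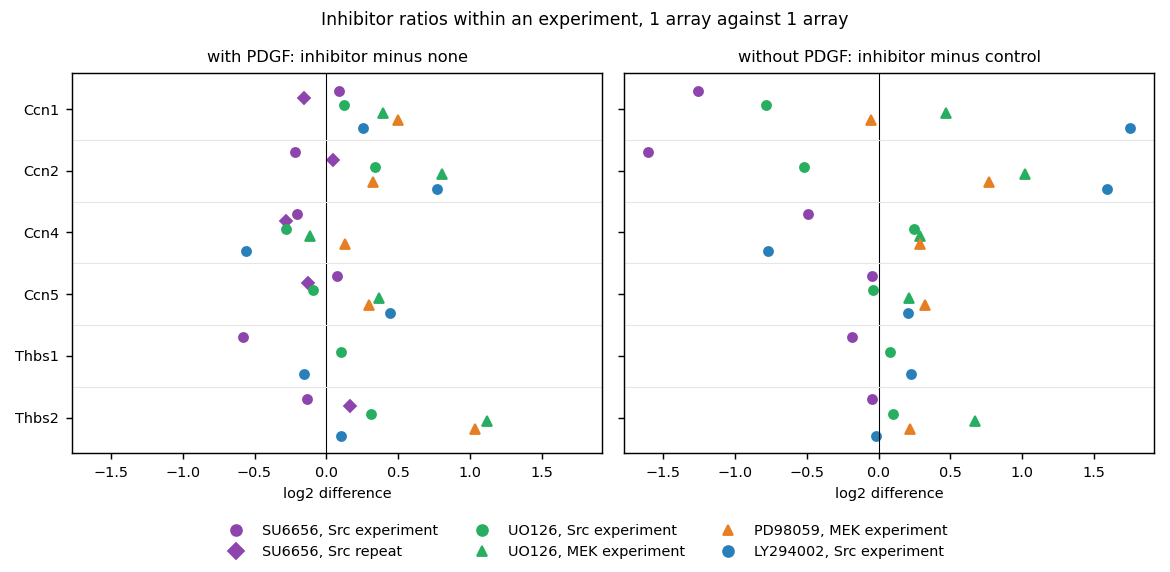
Log2 difference of an array with an inhibitor minus the array of the same experiment without it, with PDGF (left) and without PDGF (right), for each member at its probe set with the highest mean; colour gives the inhibitor and the marker's shape the experiment. Ccn1 and Ccn2 spread from SU6656 on the left to LY294002 on the right without PDGF and lie closer together with it; the 2 MEK experiment points of Thbs2 with PDGF lie at 1.11 and 1.03.

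The inhibitor effects in the Src experiment were fitted over both PDGF states, 2 arrays against 2, and 0 of 10 member probe sets passed for any inhibitor in limma. Of all probe sets 0.107% passed for SU6656, 0.0442% for UO126 and 0.511% for LY294002. At an unadjusted p under 0.05 there were 4 of 10 member probe sets for SU6656 (of Ccn2, Ccn4 and Thbs1), against 8.01% of all. For UO126 there was 1 of 10 (of Thbs2), near the share of 9.09% of all, and for LY294002 5 of 10 (of Ccn1, Ccn2, Ccn4 and Ccn5), against 13.3%. The largest member effects were 1.18 for Ccn2 with LY294002 (95% interval 0.28 to 2.07, adjusted p = 0.244), 1.00 for Ccn1 with LY294002 (−0.14 to 2.15, adjusted p = 0.452) and −0.91 for Ccn2 with SU6656 (−1.80 to −0.02, adjusted p = 0.611). Ccn1 with SU6656 was −0.58 (−1.73 to 0.56). Leaving out the array with LY294002 alone turned the Ccn1 effect of LY294002 to −0.11, and leaving out the array with SU6656 alone turned that of SU6656 to 0.19. The Ccn2 effects also rested on these arrays: that of LY294002 ran from 0.39 without the array with LY294002 alone to 1.96 without the PDGF and LY294002 array. That of SU6656 ran from −1.59 without the PDGF and SU6656 array to −0.22 without the array with SU6656 alone. Ccn4 at 1448593_at was −0.60 with SU6656 (adjusted p = 0.356) and −0.57 with LY294002 (adjusted p = 0.122), lower in 2 of 2 PDGF states each. Thbs1 at 1460302_at was −0.38 with SU6656 (adjusted p = 0.516), and Ccn5 was 0.32 with LY294002 (adjusted p = 0.207). The residual of this fit holds the unequal PDGF responses of the 4 pairs, which were widest for Ccn1 and Ccn2.

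The differences between inhibitors were tested in the same fit, again with 0 of 10 member probe sets past the threshold in each of 3 contrasts. Of all probe sets 0.701% passed for SU6656 minus LY294002, 1.39% for UO126 minus LY294002 and 0.215% for UO126 minus SU6656. At an unadjusted p under 0.05 there were 6 member probe sets of 4 genes (Ccn1, Ccn2, Ccn5 and Thbs1) for SU6656 minus LY294002, against 13.5% of all. For UO126 minus LY294002 there were 6 of 4 genes (Ccn1, Ccn2, Ccn4 and Ccn5), against 15.3%, and for UO126 minus SU6656 4 of 3 genes (Ccn4, Thbs1 and Thbs2), against 9.64%. Ccn2 was closest, −2.08 for SU6656 minus LY294002 (SE 0.398, adjusted p = 0.0584), lower with SU6656 both with PDGF (4160.4 against 8226.1) and without (204.3 against 2033.2). It was past the threshold on the deposited scale (−2.04, adjusted p = 0.048) and in 3 others of the 7 settings that changed the processing (adjusted p 0.0353 to 0.343 over all). Without the PDGF and LY294002 array it passed at −2.86 (adjusted p = 0.0398), as did both Ccn1 probe sets (−2.70 and −2.39). Without the array with LY294002 alone Ccn2 was −1.30 (adjusted p = 0.307), and without the array with SU6656 alone −1.40 (adjusted p = 0.297). Ccn1 at its brighter set was −1.59 (SE 0.509, adjusted p = 0.22), and −0.47 (adjusted p = 0.75) and −0.82 (adjusted p = 0.67) without the same 2 arrays in turn. For UO126 minus LY294002 Ccn2 was −1.27 (adjusted p = 0.166; −2.05 to −0.49 when 1 array was left out), and without the PDGF and LY294002 array both Ccn1 sets passed there (−2.45 and −2.23). For UO126 minus SU6656 Ccn2 was 0.82 (−0.08 to 1.71; 0.13 to 1.497 when 1 array was left out) and Thbs1 at 1460302_at 0.47 (0.17 to 0.77, adjusted p = 0.297).

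MEK inhibition was tested in the 9-array table with UO126 and PD98059 as its 2 replicates. Of the 5 members 0 passed under PDGF, where 0% of all probe sets did, and 0 passed without PDGF, where 0.0115% did. At an unadjusted p under 0.05 there were 2 members under PDGF (Ccn2 and Thbs2), against 7.23% of all, and 1 without (Ccn2), against 7.25%. The largest member effect was that of Thbs2 under PDGF, 1.09 (95% interval 0.57 to 1.61, adjusted p = 0.309). The array signals were 384.2 with PDGF plus UO126 and 363.8 with PDGF plus PD98059, against 171.9 with PDGF. Both inhibitor arrays were thus above the same single PDGF array, by 2.17-fold and 2.05-fold. Without PDGF the Thbs2 effect was 0.43 (−0.09 to 0.95), with 371.0 under UO126 and 276.1 under PD98059, against 227.6 in untreated cells.

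Thbs2 was also higher with UO126 in the Src experiment. Set 1450663_at read 1115.2 with PDGF and UO126, against 591.0 with PDGF, and 1058.8 with UO126, against 878.1 with vehicle. Set 1422571_at read 1688.8 against 1344.8 and 1587.2 against 1482.6 in the same order. Each UO126 array was above its partner, and the fitted effect at 1450663_at was 0.57 (0.10 to 1.04, adjusted p = 0.458). Without the PDGF and UO126 array it was 0.29. Higher readings at 1450663_at were not confined to UO126. With LY294002 this set read 864.0 with PDGF and 913.6 without, and with SU6656 624.3 and 1200.5. Each of these was also above the array without inhibitor. At 1422571_at both SU6656 arrays were lower than theirs, at 1230.2 with PDGF and 1436.0 without. The LY294002 arrays read 1452.7 and 1480.0 there.

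Ccn2 was higher with MEK inhibition under PDGF by 0.68 (0.19 to 1.17, adjusted p = 0.499) and without by 0.77 (0.28 to 1.26, adjusted p = 0.45), and Ccn1 under PDGF by 0.37 (−0.22 to 0.96). Ccn5 under PDGF was 0.42 (−0.01 to 0.85). The interaction of PDGF with MEK inhibition asks whether the PDGF response differed from that of the untreated pair and the repeat's vehicle pair together. Here 0 of 5 members passed (0% of all probe sets). At an unadjusted p under 0.05 there were 0 members and 4.86% of all. It was 0.65 for Thbs2 (0.00 to 1.31, adjusted p = 0.999) and −0.09 for Ccn2 (−0.71 to 0.53), which turned to 0.01 with arrays scaled to a common median.

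The remaining contrasts of the 9-array table gave no member past the threshold. For SU6656 under PDGF 0 of 5 passed (0% of all probe sets; at an unadjusted p under 0.05, 0 members and 5.98% of all), with Ccn2 at −0.08 (−0.66 to 0.50). For UO126 minus PD98059 0 of 5 passed (0% of all probe sets). At an unadjusted p under 0.05 there was 1 member, against 5.29% of all, which was Ccn2 at 0.36 (0.02 to 0.71, adjusted p = 0.907), higher with UO126 both with PDGF (4143.9 against 2929.2) and without (1041.5 against 887.1). These 2 inhibitors were given at different doses, 10 and 7.5 µM.

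Lists of genes that work with the 6 members were read against the share of all genes that passed for PDGF. Of the genes of the 8-array table, 2.51% rose and 0.824% fell, and of those of the 9-array table, 1.67% rose and 0.267% fell. Per gene at its brightest probe set, 4 of 6 members rose and 1 fell in the 8-array table, with a median effect of 1.27, against −0.046 over the 9218 genes tested. Of 5 members in the 9-array table, 2 rose, with a median of 0.34, against −0.037 over 6366 genes. Of other CCN and thrombospondin genes, Thbs3 and Comp were tested in the 8-array table and Thbs3 in the 9-array table, and none passed. Of other matricellular and matrix genes such as Fn1, Sparc, Tnc and Postn, 0 of 11 and 0 of 10 passed in limma, with medians of 0.01 and −0.03.

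Among receptors and binding partners, Sdc4, a heparan sulfate proteoglycan of focal adhesions, rose by 1.08 (SE 0.0878, adjusted p = 1.09e-04) and Itga5, the fibronectin receptor alpha chain, by 0.64 (adjusted p = 0.0242) in the 8-array table, 2 of 11. Sdc4 was −0.15 (adjusted p = 0.711) in the 9-array table, where Lrp6, a WNT co-receptor, fell by 0.73 (adjusted p = 0.0314), 1 of 10. Of YAP and TEAD genes and their targets, in the 8-array table, 14 were tested, 2 rose and 1 fell. Ankrd1, a common YAP target, rose by 1.26 (SE 0.135, adjusted p = 6.77e-04), Wwtr1, which encodes TAZ, by 0.46 (adjusted p = 0.0137), and the LIM protein gene Ajuba fell by 0.86 (adjusted p = 0.0263). Of 10 in the 9-array table, 2 rose, Ankrd1 by 1.05 (adjusted p = 0.00257) and the kinase gene Lats2 by 0.70 (adjusted p = 0.0352). Of 9 TGF-beta genes tested in the Src experiment, 2 rose, both encoding inhibitors of SMAD signalling: Skil by 0.76 (adjusted p = 9.59e-04) and Smad7 by 0.64 (adjusted p = 0.0144). Of 8 in the 9-array table, none passed in limma, with Skil at 1.09 (adjusted p = 0.061) and Smad7 at 0.85 (adjusted p = 0.0793). The calls of Itga5, Wwtr1, Ajuba and Smad7 were each lost in 6 of 8 fits that left out 1 array, with adjusted p of up to 0.13, 0.0901, 0.112 and 0.0848 in that order, and those of Lrp6 and Lats2 in 6 of 9, up to 0.164 and 0.169. The calls of Sdc4, Skil and Ankrd1 held in all such fits. These fits repeat each other by pair, since leaving out either array of a pair removes that pair from the PDGF effect. The array with PDGF and SU6656 in the repeat has no partner and is not in the PDGF fit. The tables were normalised separately, so a gene's effects in the 2 are set side by side without a test.

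Likeness across arrays was described by Pearson's r between log2 signals centred within each experiment, over 8 arrays and 2927 candidate genes in the one table and 9 arrays and 2025 genes in the other, with all points sharing the PDGF and inhibitor design and the experiments. The genes most like the brighter Ccn1 set were Tnfrsf12a, the TWEAK receptor gene (r = 0.986), the transcription factor gene Egr1 (0.984) and Ccn2 (0.983). For Ccn2 they were Frmd6 (0.985), Ccn1 (0.983) and Gadd45b (0.982). For Thbs1 at 1460302_at they were Ptgs2, the inducible prostaglandin synthase gene (0.996), Phlda1 (0.987) and Noct (0.986), and for 1450377_at Junb (0.995), Ptgs2 (0.993) and Tiparp (0.99). Ccn4 was most like Pmvk (0.974), F3 (0.967) and Acsl4 (0.966) at 1448593_at. In the 9-array table Ccn1 was most like Socs1 (0.986), Epha2 (0.985) and Zfp36l2 (0.982), Ccn2 most like Nfil3 (0.979), Ccn1 (0.962) and Atf3 (0.959), and Thbs2 most like Tcp11 (0.948). Ccn1 at its brighter set and Ccn2 were thus among each other's 3 nearest genes in the 8-array table, and Ccn1 among those of Ccn2 in the other. The other Ccn1 set, 1438133_a_at, did not have Ccn2 among its 3, which were Egr1 (0.993), Spry2 (0.987) and Gadd45b (0.987). Ccn5 in both tables, Thbs2 in the 8-array table and Ccn4 in the 9-array table ranged by under 1 log2 unit and were not ranked.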

How the data were processed

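RNA of NIH 3T3 cells was measured on 17 oligonucleotide arrays of 2 designs. Per the file headers, the authors deposited 1 intensity per probe set and array, and the values are linear. The mean after trimming 2% at either end was 500.2 to 500.4 on every array, so the deposited intensity was scaled to 1 common level. Software and build: not given in the sources used here. Control probe sets (64 and 66) were removed, and each table was quantile normalised and put on a log2 scale after adding its own 20th percentile (36.3 and 21.2 signal units). The dimmest 30% of probe sets were dropped, leaving 15838 and 8695. The fits used lmFit and eBayes with a trend (limma 3.58.1, R 4.3.3), with p-values adjusted by Benjamini-Hochberg across every probe set left, and were tested on simulated data. PDGF was fitted with the pair of arrays as a block, so an array left out took its pair out of the PDGF effect. Inhibitors were fitted with PDGF as a term in the 8-array table, and with experiment, PDGF, MEK inhibition, their interaction and SU6656 in the other, where the lone SU6656 array was assumed to vary like the rest. The residual, of few degrees of freedom, holds differences between pairs. Alternatives were the normalisation, pseudocount, filter, trend, block and each array left out. Named genes are the members, list genes past the threshold, and the 3 most alike genes of probe sets ranging over at least 1 log2 unit. Other list genes are examples, chosen after their values were seen. Names came from the platform annotation, updated through RefSeq (GRCm38.p6). The members and lists were chosen with earlier results of these data known.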

Additional observations from a re-analysis of the deposited data

Results flagged for a closer look

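In 8 of 25 contrasts that more than 1 experiment measured, a member's difference was positive in one experiment and negative in another. How often this occurs over all genes was not counted, and several of the differences are small. Values are log2 differences at the gene's probe set with the highest mean, each 1 array minus 1 array, and none of these differences between experiments was tested. UO126 without PDGF gave −0.78 for Ccn1 in the Src experiment and 0.47 in the MEK experiment, −0.52 and 1.02 for Ccn2, and −0.04 and 0.21 for Ccn5, in the same order of experiments. UO126 under PDGF gave −0.09 for Ccn5 in the Src experiment and 0.37 in the MEK experiment. SU6656 under PDGF gave 0.09 for Ccn1 in the Src experiment and −0.16 in the repeat, −0.22 and 0.04 for Ccn2, 0.07 and −0.13 for Ccn5, and −0.13 and 0.17 for Thbs2. Of these 8, 2 rest on the choice of probe set: with SU6656 under PDGF the other set in the Src experiment gave −0.19 for Ccn1 and 0.08 for Thbs2, the sign seen in the repeat. The experiments differed in array design (Src against MEK and repeat) and in their controls, vehicle or untreated. Of 40 tests of a difference between inhibitors or of PDGF by MEK inhibition on member probe sets, 0 passed the threshold in limma.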

How the results depend on the processing

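The PDGF calls of Ccn1, Ccn2, Thbs1 and Ccn4 at 1448593_at kept their direction and their side of the threshold in every alternative run. Ccn4 at 1448594_at (0.63) lost its call with no filter, no variance trend or no replicate block, and ran from 0.53 to 0.81 when 1 array was left out. Ccn5 (−0.39) lost its call with arrays scaled to a common median (−0.24), with no variance trend or no replicate block (both −0.39), and ran from −0.45 to −0.35 when 1 array was left out. The pairs come from the design, and without the replicate block 241 probe sets of the 8-array table and 60 of the other passed for PDGF, against 525 and 150. Without the trend these were 175 and 63, and without the filter 357 and 102. For SU6656 minus LY294002 the count of members was 1 in place of 0 on the deposited scale, with a common median, with the pseudocount at the 50th percentile and with the lowest 50% left out, and 0 to 3 when 1 array was left out. For UO126 minus LY294002 it was 0 to 2. Signs turned for uncalled effects alone: Thbs2 at 1422571_at for PDGF (0.034, common median), the interaction for Ccn2 (0.0065, common median), and, when 1 array was left out, Thbs2 at 94930_at for PDGF (−0.28 to 0.012), the Ccn2 interaction (−0.33 to 0.16), Ccn2 with SU6656 under PDGF (−0.45 to 0.045), Ccn1 with LY294002 (−0.11 to 2.12) and Ccn1 with SU6656 (−1.35 to 0.19). The cause was not tested. Scaling moved the median PDGF effect of all probe sets by under 0.1. With 1 array per condition, ratios of a single inhibitor have no replicate check, and dim signals without PDGF limit the folds of Ccn1. The Ccn2 response with SU6656 also moved with the pseudocount, though its lowest signal in the 8-array table was 204.3. With the pseudocount at the 50th percentile the PDGF effect on Ccn1 in the 9-array table was 1.61 in place of 2.55.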

Other observations

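The members differed in level between the control arrays of the 2 experiments that share an array design, the repeat's vehicle array and the MEK experiment's untreated array. Deposited signals were 2.31-fold higher in the repeat for Ccn1, 3.50-fold for Ccn2, 3.63-fold for Ccn5 and 2.93-fold for Thbs2, and 1.11-fold for Ccn4. Of the 8695 probe sets kept, 9.72% were at least 2-fold higher in that comparison. With PDGF the repeat was 2.31-fold, 2.37-fold, 2.73-fold, 2.71-fold and 1.00-fold higher for Ccn1, Ccn2, Ccn5, Thbs2 and Ccn4. Experiment, control treatment and any difference in culture cannot be told apart here.

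Each table also holds a probe set annotated to both Pald1 and Thbs1, which the rule leaves out. On the 8 arrays of the Src experiment 1421811_at read 1907.0 to 3396.0 on the 4 PDGF arrays and 356.9 to 991.6 on the 4 without. On the other design 160469_at read 6547.6, 5665.0 and 7383.2 with PDGF and UO126, PDGF and PD98059 and PDGF alone in the MEK experiment, against 5723.6, 5131.5 and 5495.3 in the partners. In the repeat it read 5104.3 with PDGF and SU6656 and 5170.3 with PDGF, against 3430.8 with vehicle.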
